A study of Homo sapiens with 24 samples.

Results

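LCN2 and 7 other genes of epithelial defence and the acute-phase response were followed across every array of the series. LCN2 encodes lipocalin 2, and the other members are IL20RB, SAA1, SAA2, C3, CFB, SLPI and PI3. The members were chosen by name, because LCN2 had a high log2 ratio on both genistein arrays, so the genistein values below describe how the genes were picked and carry no test. The members make 8 of the 20278 genes that probes of the first array design could be named for, and 8 of the 21126 genes of the second. They were measured by 10 probes, with 1 probe each except for SAA2 and C3, which had 2. All 10 probes were on both designs with the same sequence.

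The series holds 24 two-colour arrays of human cancer cell lines. On each array RNA of treated cells carried the dye Cy5 and RNA of control cells of the same line carried Cy3. PC3, DU145 and LNCap are prostate cancer lines, 786O and A498 are kidney cancer lines, and FaDu and SAS are squamous carcinoma lines of the head and neck. Genistein, a soy isoflavone, was given to PC3 and DU145, and the control is untreated in the labels and vehicle-treated in the study's methods. Wogonin, a plant flavone, was given to SAS and FaDu against DMSO. Synthetic microRNAs were set against a control miRNA, with miR-145 in PC3, DU145 and LNCap, miR-143 in DU145 and PC3, miR-27b in PC3, 786O and A498, miR-23b and miR-24 in PC3, miR-375 in FaDu and miR-29a in SAS. Small interfering RNAs were set against a control siRNA, with si-CAV2 in A498 and 786O, si-LAMB3 in FaDu and SAS, and si-GOLM1 in DU145 and PC3. The chemokine CXCL10 was given to 786O for 12 and 24 h against untreated cells. Each of these groups is 1 array of 1 line, with no dye swap, so a dye effect and a treatment effect cannot be told apart on any array.

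Lipocalin 2 is a small secreted protein that binds iron-carrying bacterial siderophores and so keeps iron from bacteria. Serum amyloid A proteins and complement factors are made mainly by the liver in the acute phase, but epithelial and tumour cells also make them, and genes of this group are known targets of NF-kB, C/EBP and STAT3 after signals such as interleukin 1, interleukin 6 and interleukin 17. SLPI and PI3 encode secreted inhibitors of neutrophil proteases, and IL20RB encodes a receptor chain shared by the cytokines IL-19, IL-20 and IL-24.

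The arrays lie on 3 slides, with 16 arrays of the first design on slides 1 and 2 and 8 arrays of the second design on slide 3. Between 53.2% and 67.6% of the spots that are not controls were well above background in the Cy3 channel, and none of these spots was saturated. The targeted transcript was lower on all 6 siRNA arrays, with log2 ratios of −3.80 and −3.20 for CAV2, −2.64 and −4.15 for GOLM1 and −2.50 for LAMB3 in FaDu, but only −0.89 for LAMB3 in SAS. LNCap had all 5 prostate luminal markers well above background in its control channel, whereas KLK3, which encodes prostate-specific antigen, was above background on none of the 5 PC3 arrays of the first design. Of 5 blood-cell markers (PTPRC, ITGAM, CD68, CSF1R and MPO) between 1 and 4 were above background in all controls of a line and design. CD68 was so in every line, PTPRC, ITGAM and CSF1R together in 786O on both designs and in A498 and PC3 on the second, and MPO, the neutrophil myeloperoxidase gene, in none. Of 5 liver markers between 0 and 3 were, with HP in all lines but FaDu and the first-design PC3, APOA1 in 786O, DU145 and LNCap on the first design, TTR in LNCap, CRP in A498 on the first design, and ALB in none. Every value below is a log2 ratio of Cy5 to Cy3 unless it is called a control level, and the error beside a single array is the scanner software's own error of the log ratio, which covers spot noise and no biological spread.

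Probes carry the measurement, so that of LCN2 is shown as deposited, with those of SAA1, C3 and CFB, on which the miR-145 results below turn. Positions are on hg19. The LCN2 probe lies at chr9:130914244-130914303 on the plus strand and the SAA1 probe within chr11:18290868-18291310 on the plus strand. The C3 probe lies within chr19:6679177-6679434 on the minus strand and the CFB probe within chr6:31918992-31919147 on the plus strand. The spans of the SAA1, C3 and CFB probes are longer than their 60 bases.
LCN2 probe: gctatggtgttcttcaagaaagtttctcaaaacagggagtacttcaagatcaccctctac
SAA1 probe: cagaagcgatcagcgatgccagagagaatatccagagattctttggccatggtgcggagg
C3 probe: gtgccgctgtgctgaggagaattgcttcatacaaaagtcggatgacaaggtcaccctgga
CFB probe: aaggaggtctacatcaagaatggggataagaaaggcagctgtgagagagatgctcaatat
SAA1 and SAA2 are near-identical neighbours on chromosome 11. The SAA1 probe and the brighter SAA2 probe were designed to different stretches and share no run longer than 8 bases, but RNA of one gene can still bind the other gene's probe, so their values are uncertain as values of single genes.

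The microRNAs on whose arrays members passed the limit are shown as mature RNA, 5′ to 3′, from RefSeq, with bases 2 to 8 (the seed) in capitals. The labels do not name the arm, and the arm shown is the one usually meant by the short name.
miR-145: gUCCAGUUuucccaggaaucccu
miR-375: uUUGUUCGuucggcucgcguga
miR-23b: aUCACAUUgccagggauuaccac
miR-24: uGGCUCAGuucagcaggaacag
miR-27b: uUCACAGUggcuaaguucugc
The 5 microRNAs have 5 different seeds, and each is named below with the members that passed the limit on its arrays.

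Promoters of LCN2, CFB and IL20RB were available from RefSeq on GRCh38.p14, as the 250 bases before the annotated start on the plus strand. LCN2 and CFB are shown because CFB had the highest log2 ratio of any member and LCN2 gives the group its name. The LCN2 stretch is chr9:128149203-128149452 and the CFB stretch is chr6:31945845-31946094. Capitals mark matches on either strand to an NF-kB-like pattern (GGG, any 4 bases, TCC), a C/EBP-like pattern (TTNNGCAA) or an interferon-response-like pattern (TTTC, any 2 bases, TTTC).
LCN2 promoter: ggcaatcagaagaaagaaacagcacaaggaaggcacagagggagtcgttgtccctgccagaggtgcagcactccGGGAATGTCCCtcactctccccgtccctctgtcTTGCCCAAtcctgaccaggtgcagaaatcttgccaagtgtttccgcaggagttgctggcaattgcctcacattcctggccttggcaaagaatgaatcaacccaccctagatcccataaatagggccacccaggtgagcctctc
CFB promoter: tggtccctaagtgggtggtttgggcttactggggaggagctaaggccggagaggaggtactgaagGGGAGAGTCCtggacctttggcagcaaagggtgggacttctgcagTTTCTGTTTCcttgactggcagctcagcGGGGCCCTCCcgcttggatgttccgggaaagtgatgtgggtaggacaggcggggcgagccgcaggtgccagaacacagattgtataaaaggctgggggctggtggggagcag
The LCN2 stretch held the NF-kB-like pattern on both strands in overlapping positions, between 176 and 166 bases before the start, and the C/EBP-like pattern on the minus strand between 143 and 136 bases before it. The CFB stretch held the NF-kB-like pattern between 185 and 176 and again between 112 and 103 bases before the start, and the interferon-response-like pattern between 140 and 131. The IL20RB stretch held none of the 3 patterns. Of 35116 RefSeq promoters of the same length, 19.9% held the NF-kB-like pattern, 9.05% the C/EBP-like pattern and 3.02% the interferon-response-like pattern, and a match is a run of letters and not a shown binding site.

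A gene was taken as measured on an array when a probe of it was well above background in at least 1 channel, and by this rule 171 values of the 8 members on the 24 arrays were measured and 21 were not. With a limit of 1.0 on the log2 ratio, 32 of the measured values were past the limit upward and 18 downward. The high values came mainly from the miR-145, si-LAMB3 and genistein arrays, and the low values from the miR-375, wogonin and miR-23b, miR-24 and miR-27b arrays. On 10 arrays no member passed the limit. A single array gives no test of a treatment, and the share of all measured genes past the same limit on that array is given beside each count.

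**Figure D1:**
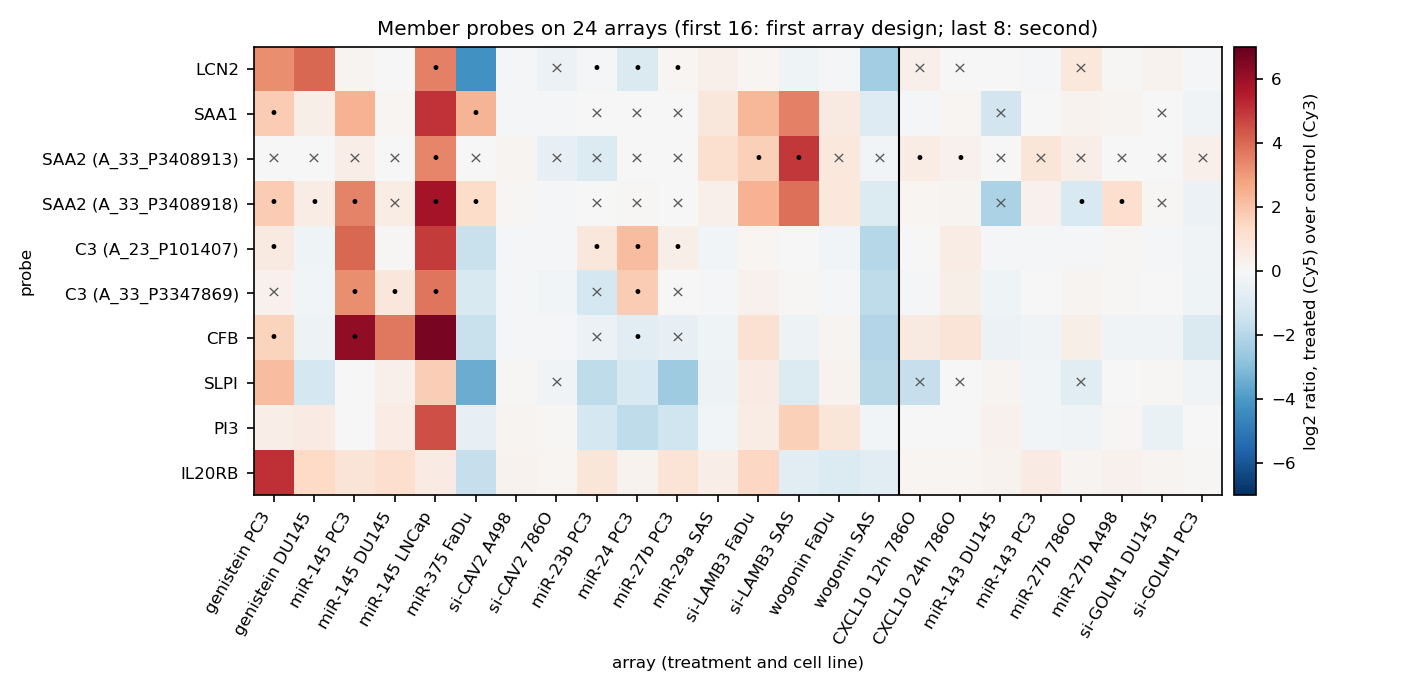
Log2 ratio of treated (Cy5) to control (Cy3) signal for each of the 10 member probes (rows) on each of the 24 arrays (columns), as colour from −7 to 7. A dot marks a probe well above background in 1 channel only and a cross a probe above it in neither, and the vertical line parts the 2 array designs. Strong colours fall on the first design, with CFB at 6.63 on the LNCap miR-145 array and LCN2 at −4.22 on the FaDu miR-375 array.

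On the genistein arrays LCN2 had log2 ratios of 3.27 ± 0.37 in PC3 and 4.00 ± 0.43 in DU145. Its processed signal was 295 in control and 2845 in treated PC3 cells. In DU145 the 2 signals were 214 and 3439. All 4 channels were well above background. In RNA of whole cultures, more RNA in every cell and more cells with the RNA cannot be told apart. Among the 12794 genes above background in all 4 of these channels, LCN2 had the highest average (3.64) and the highest smaller value (3.27). Among the 14331 genes measured in at least 1 channel of both arrays it stood 4th by the smaller value, and 281 of those genes were above 1.0 on both arrays.

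IL20RB was the other member past the limit on both genistein arrays. Its log2 ratio in PC3 was 5.09 ± 0.53, from a signal of 101 to 3462, the highest of 14860 measured genes. In DU145 it was 1.39 ± 0.24, from a signal of 4965 to 13033. DU145 had a far higher control signal of IL20RB than PC3, and its treated signal was also the higher one. SLPI was at 2.17 ± 0.29 in PC3, with signals of 2179 and 9776, and at −1.24 ± 0.23 in DU145, with signals of 1693 and 716. The 2 lines stood on opposite sides of 0 for SLPI, a difference that 1 array a line cannot test. In PC3, SAA1 (1.76), SAA2 (1.79) and CFB (1.54) were also past the limit, but their control channels were not well above background and their treated signals were at most 25.2. In DU145 these 3 genes were at 0.43, 0.52 and −0.33. PI3 was at 0.46 in PC3 and 0.57 in DU145, and C3 was at 0.64 and −0.31. In all, 6 of 8 members were past the limit upward in PC3, where 9.48% of measured genes were. In DU145 2 were past it upward and 1 downward, beside 5.78% and 5.74% of measured genes.

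Outside genistein, LCN2 passed the limit upward on 1 array and downward on 3. It was at −4.22 ± 0.45 on the FaDu miR-375 array, where the signal went from 3670 to 197, and at −2.41 ± 0.31 on the SAS wogonin array, from 437 to 82.1. On the PC3 miR-24 array it was at −1.03 ± 0.65 from a control signal of 42.5 that was not well above background, against 20.9 in the treated channel. On the LNCap miR-145 array it was at 3.54 ± 0.54, but the control signal of 5.86 was not above background and the treated signal was only 68.2, so the treated channel was at least 3.21-fold higher. Bounds such as this one set the bright channel against the dimmest spot that was still well above background in the other channel, or against the dim probe's own signal where that was higher. The values with high signal were therefore those of FaDu, SAS and the 2 genistein arrays.

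On the remaining arrays LCN2 stayed between −0.29 and 0.38 wherever it was measured. It was at 0.21 and 0.00 on the PC3 and DU145 miR-145 arrays, and at −0.14 and 0.12 on the PC3 miR-23b and miR-27b arrays. In FaDu, where its control signal was high, it was at 0.13 with si-LAMB3 and −0.12 with wogonin, and in SAS at −0.29 with si-LAMB3 and 0.38 with miR-29a. In PC3 of the second design, with control signals of 5040 and 5343, it was at −0.16 with miR-143 and −0.14 with si-GOLM1. In DU145 of that design it was at −0.05 and 0.22 with the same 2 treatments, and in A498 at 0.07 with miR-27b and −0.08 with si-CAV2. On the 786O arrays neither channel was well above background. LCN2 thus stayed between −0.16 and 0.22 on all 5 second-design arrays that measured it.

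**Figure D2:**
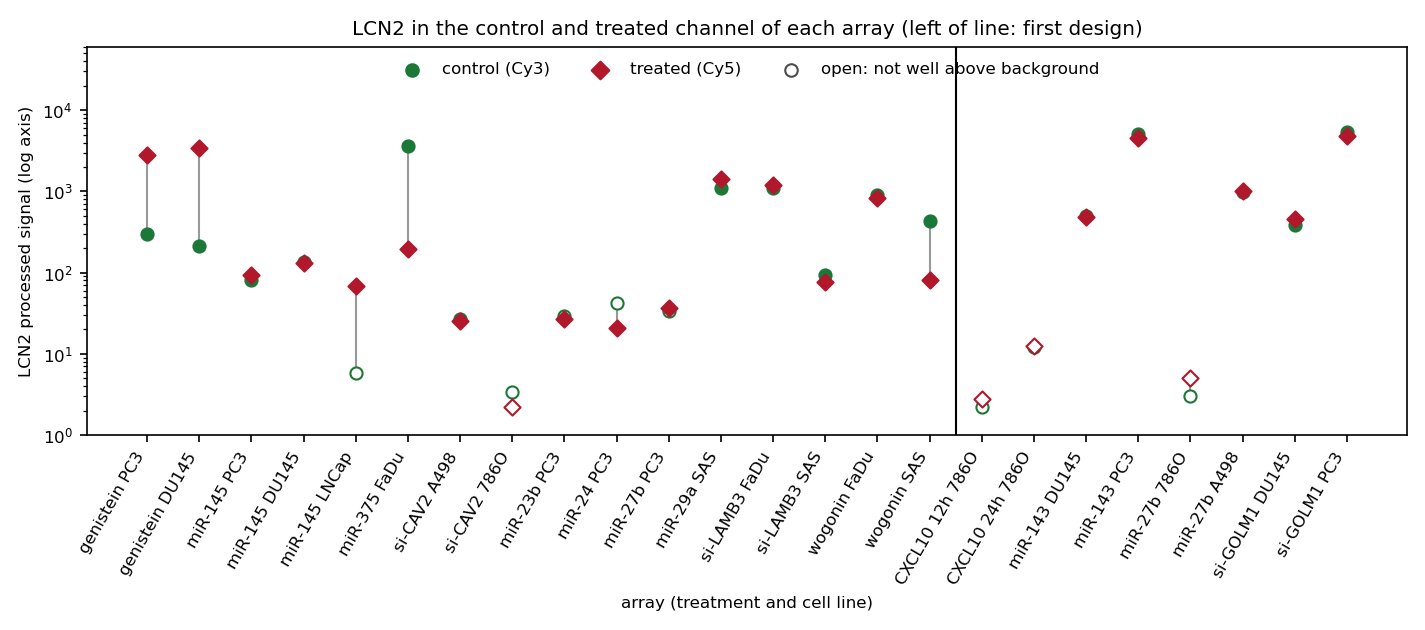
Processed signal of the LCN2 probe in the control (Cy3) and treated (Cy5) channel of each of the 24 arrays, on a log axis in scanner units. Open points were not well above background, and a line joins the 2 channels of an array. The genistein pairs go from 295 to 2845 and from 214 to 3439, the FaDu miR-375 pair goes from 3670 to 197, and the 786O pairs lie at the bottom with open points.

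SAA1 and SAA2, the acute-phase serum amyloid A apolipoproteins, were past the limit together on 6 of the 8 arrays where either was. Both si-LAMB3 arrays had them high. SAA1 had signals of 161 and 805 in FaDu (2.32 ± 0.30) and of 304 and 3509 in SAS (3.53 ± 0.39). The brighter SAA2 probe was at 2.44 ± 0.31 in FaDu and at 3.88 ± 0.42 in SAS. The dimmer SAA2 probe was at 4.95 in SAS from a control signal not above background, where the treated channel was at least 8.79-fold higher. All 4 pairs with both channels above background lay well past the software error, and the LAMB3 transcript itself was less reduced in SAS than in FaDu.

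On the miR-145 arrays SAA1 was at 5.07 ± 0.53 in LNCap and 2.45 ± 0.33 in PC3 but at 0.12 ± 0.27 in DU145. SAA2 was at 5.80 ± 0.61 in LNCap, where the control channel was dim and the treated one at least 12.8-fold higher, and at 3.50 in PC3, at least 3.31-fold higher. In DU145 neither channel of SAA2 was above background. LNCap and PC3 were thus high and DU145 stayed near 0. On the FaDu miR-375 array SAA1 was at 2.39 and SAA2 at 1.31, from dim control channels, with bounds of 4.88-fold and 2.47-fold higher, while all other members were below 0 there. SAS gave lower values with wogonin, at −0.92 for SAA1 and −0.98 for SAA2, and FaDu higher ones, at 0.62 and 0.75. SAA2 was at −1.09 on the 786O miR-27b array and at 1.19 on the A498 one, where all its signals were between 10.2 and 34.2 and SAA1 was at 0.23 and 0.17. On each of the 4 PC3 and A498 arrays of miR-143, si-GOLM1, miR-27b and si-CAV2, SAA1 was between −0.26 and 0.17.

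CFB, which encodes complement factor B, the protease of the alternative pathway, had the highest log2 ratio of any member. On the miR-145 arrays its signals were 73.1 and 7242 in LNCap (6.63 ± 0.67), 16.6 and 1230 in PC3 (6.21 ± 0.63), and 12.9 and 169 in DU145 (3.72 ± 0.41). The control channel in PC3 was not well above background, and the treated channel there was at least 49.3-fold higher. All 3 lines were high, with the lowest value in DU145. C3, the central component that factor B acts with, was at 4.92 ± 0.51 in LNCap and 4.01 ± 0.43 in PC3 but at 0.11 ± 0.22 in DU145 by its brighter probe. The second C3 probe gave 3.76, 3.24 and 0.77, from control channels that were not above background, with bounds of 11.2-fold in LNCap and 8.66-fold in PC3.

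The remaining members on the miR-145 arrays split by line. PI3 was at 4.51 ± 0.47 in LNCap, with signals of 31.3 and 716, and at 0.02 in PC3 and 0.53 in DU145. SLPI was at 1.74 ± 0.26 in LNCap and at 0.01 and 0.37 in the others. IL20RB was at 0.56 in LNCap, 0.90 in PC3 and 1.19 in DU145, so it was the one member whose highest value was in DU145. Of the 5 blood-cell markers 3 were measured on each of these arrays, and 2 were past the limit upward in LNCap, 2 in PC3 and 1 in DU145. Their part in the result was not tested. In count, 7 of 8 members were past the limit upward in LNCap, where 7.55% of measured genes were. In PC3 4 of 8 were, beside 8.47%, and in DU145 2 of the 7 measured, CFB and IL20RB, beside 3.53%. With normexp background correction CFB was at 1.56 in DU145 and 3.55 in PC3, LCN2 at 0.80 in LNCap and SAA2 at 0.87 in PC3. With the mean of the other treatments on the slide subtracted IL20RB was at 0.14 in DU145.

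**Figure D3:**
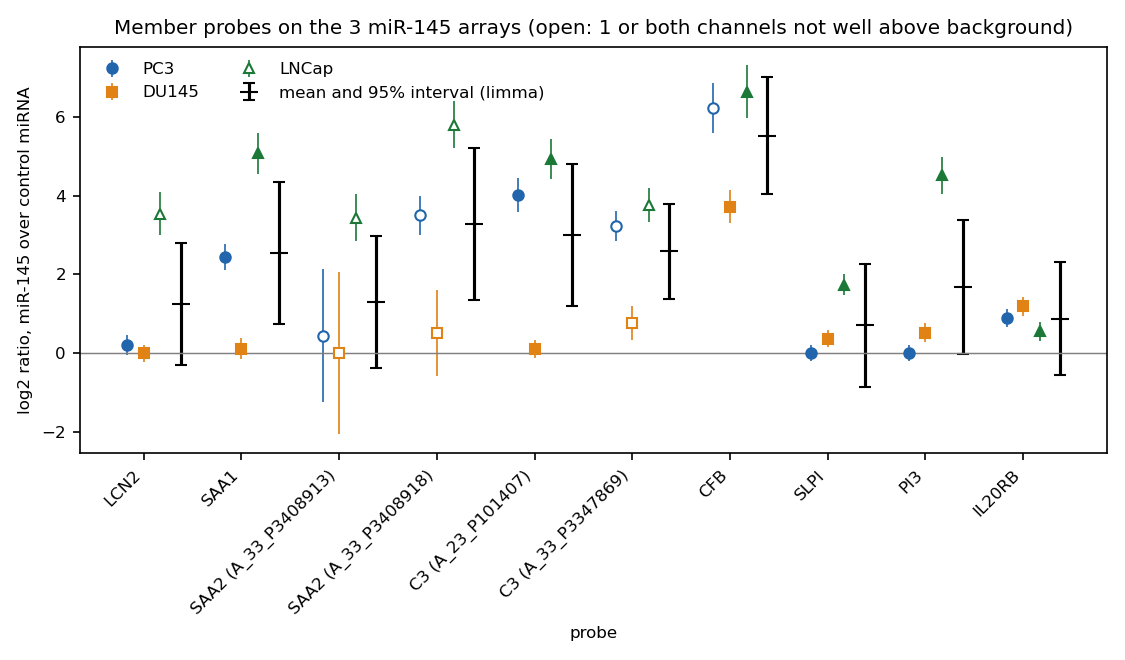
Log2 ratio of each member probe on the 3 miR-145 arrays (PC3, DU145 and LNCap) with the scanner software's error, and the limma mean over the 3 lines with its 95% interval. Open points had a channel not well above background. CFB is high in all 3 lines, with a mean of 5.52, and the other members spread between lines.

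The design allows a test where a treatment was given on more than 1 array, across lines for all of these but CXCL10, whose 2 arrays are 12 and 24 h in 786O and give an average over times. In limma over the 3 miR-145 arrays, with p-values adjusted over 32398 probes, CFB rose by a mean log2 ratio of 5.52 (SE 0.65, 95% interval 4.03 to 7.01, adjusted p = 0.00396, higher in 3 of 3 lines). Leaving out each line in turn gave means of 4.96 to 6.42, with a highest adjusted p of 0.0403, and normexp gave a mean of 3.52 (adjusted p = 0.012). The dimmer C3 probe also passed, with a mean of 2.59 (SE 0.53, adjusted p = 0.0404), but not without PC3 (2.27, adjusted p = 0.25) or without LNCap (2.003, adjusted p = 0.15), and its control channel was dim in all 3 lines. The brighter C3 probe had a mean of 3.01 (adjusted p = 0.083) and did not pass. In all 2 of 10 member probes passed, beside 3.21% of all probes.

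The means of the other members over the miR-145 arrays were 2.55 for SAA1 (adjusted p = 0.13), 3.27 for the brighter SAA2 probe (0.079), 1.25 for LCN2 (0.36), 1.69 for PI3 (0.26), 0.88 for IL20RB (0.50) and 0.71 for SLPI (0.63), all as adjusted p of limma. Without DU145 the brighter C3 probe, SAA1 and the brighter SAA2 probe passed, with means of 4.46, 3.76 and 4.65. For SAA1 and the brighter probes of SAA2 and C3 the call therefore turned on whether DU145 was counted. The dimmer SAA2 probe had a mean of 1.30 over the miR-145 arrays and did not pass, whichever line was left out.

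No member probe passed limma in the other 7 treatments given on more than 1 array. The shares of all probes that passed were 0.0556% for si-CAV2, 4.78% for si-LAMB3, 1.92% for wogonin, 0.151% for CXCL10, 0.0495% for miR-143, 0.0989% for miR-27b in the second design and 0.0835% for si-GOLM1. At an unadjusted p under 0.05 there were 3 of 10 member probes with si-LAMB3, and 0 with si-CAV2, wogonin and miR-27b. There was 1 each with CXCL10 (CFB), miR-143 (IL20RB) and si-GOLM1 (CFB). Of all 32398 probes of the first design 7234 met this threshold with si-LAMB3, 1632 with si-CAV2 and 6144 with wogonin. Of 32353 probes of the second 2742 met it with CXCL10, 4336 with miR-143, 4859 with si-GOLM1 and 4112 with miR-27b. The member counts at this threshold are therefore not read as an excess. The 3 member probes with si-LAMB3 were SAA1, with a mean of 2.92 (adjusted p = 0.12), and the SAA2 probes, with 3.31 (adjusted p = 0.075) and 3.16 (adjusted p = 0.12). After normexp background correction and loess SAA1 (2.43, adjusted p = 0.036) and the brighter SAA2 probe (2.45, adjusted p = 0.019) did pass. These tests have 2 arrays each. All arrays of a design were fitted together, with the genistein arrays in the fit of the first. Each probe thus had 1 estimate of spread, shared by all treatments of its design. The p-values rest on this shared spread and not on the spread between a treatment's own 2 arrays alone. The labels do not say that lines or arrays were separate repeats of a culture.

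Per array, si-LAMB3 had 4 of 8 members past the limit upward in FaDu (SAA1, SAA2, CFB and IL20RB), beside 5.16% of measured genes, and 3 in SAS (SAA1, SAA2 and PI3), beside 7.39%. CFB was at 1.06 in FaDu and −0.37 in SAS. IL20RB was at 1.42 in FaDu and −0.77 in SAS, and PI3 at 0.50 and 1.68. SLPI was at 0.56 in FaDu and −0.96 in SAS. Beyond SAA1 and SAA2 the 2 lines had no member past the limit in common. With normexp CFB in FaDu was at 0.78 and PI3 in SAS at 0.73, and with the mean of other treatments on the design subtracted IL20RB in FaDu was at 0.80.

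On the FaDu miR-375 array 5 of 8 members were past the limit downward, beside 13.4% of measured genes, and SAA1 and SAA2 upward, beside 10.6%. SLPI was at −3.47 ± 0.38, from a signal of 5747 to 520. IL20RB was at −1.62 ± 0.25, CFB at −1.54 ± 0.27, and the C3 probes at −1.54 and −1.04. PI3 was at −0.56 ± 0.24. LCN2 and SLPI were the lowest of the group, and both started from high control signals. With normexp CFB was at −0.76, SAA1 at 0.66 and SAA2 at 0.31, none past the limit.

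The SAS wogonin array had 4 of 8 members past the limit downward, beside 6.63% of measured genes. CFB was at −2.07 ± 0.42, the C3 probes at −2.00 and −1.77, and SLPI at −1.96 ± 0.27, beside LCN2 at −2.41. IL20RB was at −0.75 and PI3 at −0.20. With normexp CFB was at −0.56, and with the slide mean of other treatments subtracted SLPI was at −0.94. On the FaDu wogonin array no member passed, beside 8.63% of measured genes past the limit either way, and LCN2, C3, CFB and SLPI were at −0.12, −0.21, 0.17 and 0.26. The difference between the lines was not tested, since each had 1 array.

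SLPI and PI3, the protease inhibitors, were lower on all 3 PC3 arrays of miR-23b, miR-24 and miR-27b. SLPI was at −1.79 ± 0.26, −1.07 ± 0.23 and −2.48 ± 0.31 and PI3 at −1.26 ± 0.23, −1.79 ± 0.26 and −1.42 ± 0.24 in that order. The control channels of these arrays differed from each other by a robust SD of 0.0932 to 0.0995 in log2 level, against 0.212 to 0.826 for the 19 other pairs of control channels of 1 line and design. They were counted as 1 control sample, so the 3 values share their control and are not 3 separate observations. With miR-23b 2 of 5 measured members were past the limit downward, beside 5.18% of measured genes, and with miR-27b 2 of 5, beside 5.34%. With miR-24 3 of 6 were past it downward, beside 12.8%, and C3 upward at 2.15, at least 3.096-fold from a dim control channel, beside 15.6%. CFB was not well above background with miR-23b or miR-27b. IL20RB was at 0.85, 0.27 and 0.95. With the slide mean of other treatments subtracted SLPI was at −0.94 with miR-23b and −0.11 with miR-24, and with normexp C3 and LCN2 with miR-24 were at 0.62 and −0.12.

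On the second design and in the kidney lines no measured value of SLPI or PI3 passed the limit. PI3 was at −0.18 and 0.00 in PC3 with miR-143 and si-GOLM1, at 0.30 and −0.45 in DU145, and between −0.26 and 0.17 on all 786O and A498 arrays. SLPI was between −0.25 and 0.21 on the 5 second-design arrays that measured it, and at 0.09 in A498 with si-CAV2. It was not above background in 786O.

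The last arrays gave few members past the limit. On the 786O miR-27b array SAA2 was past it downward, beside 1.48% of measured genes, and on the A498 one SAA2 was past it upward, beside 1.25%. No member passed on the si-CAV2 arrays, beside 2.12% of measured genes in A498 and 1.98% in 786O. The same held for miR-29a in SAS (8.99%), miR-143 in DU145 (2.65%) and PC3 (1.98%), and si-GOLM1 in DU145 (1.09%) and PC3 (2.74%). It also held for CXCL10 at 12 h (1.88%) and 24 h (2%). CFB came near the limit, at −0.99 ± 0.24 with si-GOLM1 in PC3 and at 0.66 ± 0.33 and 0.88 ± 0.23 after 12 and 24 h of CXCL10, beside C3 at −0.04 and 0.49. SAA1 was at 0.78 and the SAA2 probes at 0.37 and 1.11 with miR-29a in SAS, the second of them from the dimmer probe.

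IL20RB was measured on all 24 arrays, with a median of 0.26 and a range from −1.62 to 5.09. It was past the limit upward on 4 arrays, both genistein ones, DU145 with miR-145 and FaDu with si-LAMB3, and downward on FaDu with miR-375. Values between −0.93 and −0.75 came from SAS with si-LAMB3 or wogonin and from FaDu with wogonin. The genistein PC3 value stood far from all others, the next being 1.42. PI3 and C3 were also measured on all 24 arrays, LCN2 and SLPI on 20, CFB on 22, SAA1 on 19 and SAA2 on 18.

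Over the 24 arrays the log2 ratios of SAA1 and SAA2 gave Pearson's r of 0.951 and Spearman's rho of 0.852, and those of C3 and CFB gave 0.827 and 0.497. LCN2 gave 0.673 with IL20RB, 0.621 with SLPI, 0.482 with CFB and 0.264 with SAA1 by Pearson. By Spearman the same pairs gave 0.556, 0.367, 0.603 and 0.363, so their order depended on the measure. PI3 and IL20RB gave 0.0385 by Pearson and 0.121 by Spearman. The genistein arrays, on which the members were picked, are part of these values, and pairs of members were not correlated without them. These are descriptions over 24 arrays of 7 lines, of which some share a control, and unmeasured values enter as the software gives them. Outside the members, the genes whose log2 ratios were most like LCN2's over 24 arrays, of 13132 compared, were NFE2L1 (r = 0.890), NIBAN1 (0.890), GOLGA2P10 (0.832), GAB2 (0.824) and ZFAS1 (0.807). Those most opposite were TPM3P9 (−0.843), FBXL6 (−0.836) and EXOSC4 (−0.826). With the genistein arrays left out Pearson's r was 0.887 for NFE2L1 and 0.711 for ZFAS1. Over all 24 arrays Spearman's rho for these 2 genes was lower than r, at 0.585 and 0.597.

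Other genes of the same pathways were counted on the genistein arrays, where 9.48% and 6.82% of all measured genes were past the limit upward and downward in PC3 and 5.78% and 5.74% in DU145. Of the IL-20 family and its receptors 1 of 5 measured genes was past the limit upward and none downward in each line, and it was IL24, at 1.47 in PC3 and 2.82 in DU145. IL24 encodes a ligand of receptors that contain the IL20RB chain. IL26 had the largest fall of this list on average, at −0.62 in PC3 and −0.63 in DU145, both inside the limit. Of the NF-kB, STAT3 and C/EBP regulators 4 of 25 were past the limit upward and 4 downward in PC3, and 2 and 2 of 26 in DU145. CEBPB, the transcription factor C/EBP beta, was at 2.50 in PC3 and 0.08 in DU145, and IL17RC, a chain of the IL-17 receptor, at −1.11 and −1.21.

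Other antiproteases and epithelial defence genes had 3 of 11 past the limit upward and 1 downward in PC3, and 0 of 13 upward and 8 downward in DU145, with medians of 0.25 and −1.62 beside 0.09 and 0.00 for all measured genes. S100P, a calcium-binding protein gene, was at 5.01 and 0.60, and WFDC3, of the same inhibitor family as SLPI, at −2.04 and −1.62. Other complement genes had none past the limit upward and 4 downward in each line, of 14 and 15 measured. C1R, a protease of the classical pathway, was at −1.44 and −1.39, and C2, the classical-pathway relative of CFB, at 0.35 and −0.09. Other acute-phase genes had 1 of 8 upward in PC3 and 3 of 10 downward in DU145, with HP (haptoglobin) at 0.72 and −3.44 and HPX (hemopexin) at 1.46 and −0.70. Genes for handling of siderophores and of LCN2 had 3 of 8 upward and 1 downward in PC3 and 2 of 8 downward in DU145, with FTH1, the ferritin heavy chain gene, at 2.87 and 0.32 and LRP2, a receptor that takes up LCN2, at −1.34 and −1.13.

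On the miR-145 arrays 13 of 25 measured NF-kB, STAT3 and C/EBP regulators were past the limit upward and none downward in LNCap. Their median was 1.05 beside −0.10 for all genes, of which 7.55% were past it upward and 1.53% downward. In PC3 7 of 24 regulators were past it upward and 2 downward (median 0.67), beside 8.47% and 5.88% of all measured genes. In DU145 1 of 26 was past it upward (median 0.06), beside 3.53%. On the SAS si-LAMB3 array, where SAA1 and SAA2 were also high, 8 of 26 regulators were past it upward and 2 downward. The shares of all measured genes there were 7.39% and 7.004%, and the regulator median was 0.55 beside 0.03 for all genes. The largest rises were BIRC3 at 5.01, NFKBIE at 2.33 and NFKB2 at 2.06, and the falls were IL1RAP at −2.88 and CEBPA at −1.13. On the FaDu si-LAMB3 array 1 of 25 regulators was past the limit upward, beside 5.16% of all measured genes. The median there was 0.18 beside 0.03 for all genes. On the SAS wogonin array 10 of 14 other antiproteases and defence genes were past it downward, beside 6.63% of all measured genes. Their median was −1.52 beside 0.05 for all genes. On the FaDu miR-375 array 7 of 12 antiproteases and defence genes and 6 of 16 other complement genes were past it downward, beside 13.4% of all measured genes. These lists are counted, with no test of a list.

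The members were also compared between untreated or control-treated lines. The control level is the log2 of the Cy3 signal less the 75th percentile of that channel, and levels were set against each other only within 1 probe and 1 array design, because a line's level could differ strongly between the designs. On the first design the LCN2 control level was highest in FaDu, at 1.96 ± 0.58 (SD, n = 3), then in SAS at −0.09 ± 1.98 (n = 3), DU145 at −1.42 ± 0.04 (n = 2), PC3 at −2.36 ± 1.51 (n = 3) and A498 at −3.67 (n = 1). It was not well above background in LNCap and 786O, and FaDu was at least 80.1-fold above LNCap and 108-fold above 786O. In limma FaDu exceeded PC3 by 4.31 (adjusted p = 0.0059), with 4.26 on slide 1 alone (0.045) and 5.42 on slide 2 alone (0.049). FaDu exceeded DU145 by 3.38 (adjusted p = 0.044), with 3.05 to 3.56 and no call when any 1 sample was left out (highest adjusted p = 0.16). The neighbours FaDu and SAS, SAS and DU145, and DU145 and PC3 did not pass.

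On the second design the order for LCN2 was another. PC3 was highest at 4.42 ± 0.16 (SD, n = 2), then A498 at 2.28 (n = 1) and DU145 at 1.03 ± 0.28 (n = 2), and 786O was not above background on any of 3 arrays. PC3 was at least 408-fold above 786O, A498 at least 92.9-fold and DU145 at least 38.8-fold. DU145 minus PC3 was −3.39 in limma (adjusted p = 0.024), with −3.59 to −3.20 and no call when any 1 array was left out (highest adjusted p = 0.13), and 786O was below both. The PC3 controls of the 2 designs came from separate experiments, and design and culture cannot be told apart.

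SLPI was also dim in 786O on both designs. On the second design PC3 was at 5.82 ± 0.49 (SD, n = 2), DU145 at 1.92 ± 0.40 (n = 2) and A498 at 1.37 (n = 1), so PC3 was at least 1081-fold above 786O. On the first design A498, FaDu, SAS and PC3 lay between 1.91 and 2.51 and no pair of FaDu, SAS and PC3 passed in limma. PI3 was high in PC3 alone, at 3.35 ± 0.86 (n = 3) on the first design and 6.68 ± 0.24 (n = 2) on the second, and every other line had a mean between −4.62 and −1.09. In limma the level in DU145 minus that in PC3 was −7.09 on the first design (adjusted p = 5.4e-05), and this passed in each alternative run, slide 1 alone included.

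C3 and CFB were near background in PC3 on the first design, with 1 of 3 controls well above it for CFB and for the brighter C3 probe, so PC3 has no settled place below the dimmest other line. C3 by its brighter probe was at 2.96 in A498 (n = 1), 2.85 ± 0.85 in SAS (SD, n = 3), 1.26 ± 1.02 in FaDu (n = 3), 0.01 in 786O, −1.28 ± 1.51 in DU145 (n = 2), −3.79 in LNCap and −4.05 ± 0.46 in PC3 (n = 3). SAS exceeded PC3 by 6.90 in limma and by 7.35 on slide 2 alone (adjusted p = 0.0014). On the second design PC3 instead had the highest C3 level, 3.27 ± 0.63 (n = 2), and DU145 the lowest, −0.997 ± 0.20 (n = 2). CFB stood at −5.37 ± 0.74 in PC3 and −1.26 ± 0.48 in FaDu on the first design (n = 3 each), and at −0.97 ± 0.06 in PC3 on the second (n = 2). FaDu exceeded PC3 in CFB by 4.11 in limma on the first design, but by 3.70 with an adjusted p of 0.15 on slide 1 alone, and the sizes of the CFB and C3 differences from PC3 rest on signals near background.

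SAA1 and SAA2 varied widely within a line. For SAA1 the 3 SAS controls ranged from −0.47 to 3.95 and the 3 FaDu controls from −4.70 to 0.03, and the lowest FaDu control was that of the miR-375 array. The brighter SAA2 probe ranged from −1.62 to 3.88 over the SAS controls. SAS exceeded PC3 in SAA1 by 6.46 in limma and by 7.23 on slide 2 alone (adjusted p = 0.036). SAA1 was well above background in 1 of the 3 PC3 controls, so the size of this difference rests on signals near background. On the second design 786O was highest at 1.02 ± 1.78 (SD, n = 3), and DU145 was not above background, at least 28.7-fold below it. IL20RB was highest in SAS, at 3.62 ± 0.99 (n = 3), and in A498, at 3.35 and 4.45 on the 2 designs, and lowest in LNCap at −3.02 and PC3 at −2.13 ± 0.29 (n = 3) and −2.33 ± 0.59 (n = 2). SAS exceeded PC3 in IL20RB by 5.75. In DU145 the IL20RB level was 0.69 on the miR-145 array and 3.08 on the genistein array of the same line, and without the genistein arrays DU145 exceeded PC3 by 2.73 (adjusted p = 0.14).

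By count, limma passed 3 of 10 member probes between DU145 and PC3 on the first design, beside 21.8% of all probes, and 7 of 10 between FaDu and PC3, beside 33.7%. It passed 7 of 10 between SAS and PC3 (33.1%), 3 between FaDu and DU145 (23.2%), 4 between SAS and DU145 (23.8%) and 1, IL20RB, between SAS and FaDu (20.6%). On the second design, where 9 member probes were tested, it passed 8 between DU145 and PC3 (16.7%), 7 between 786O and PC3 (25%) and 4 between 786O and DU145 (23.8%). C3 was the member that turned most between designs, with a level in DU145 minus PC3 of 2.77 on the first and −4.27 on the second. Several of these calls were lost without 1 sample or on 1 slide alone, and PI3 in PC3 against DU145 was called in all of them.

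**Figure D4:**
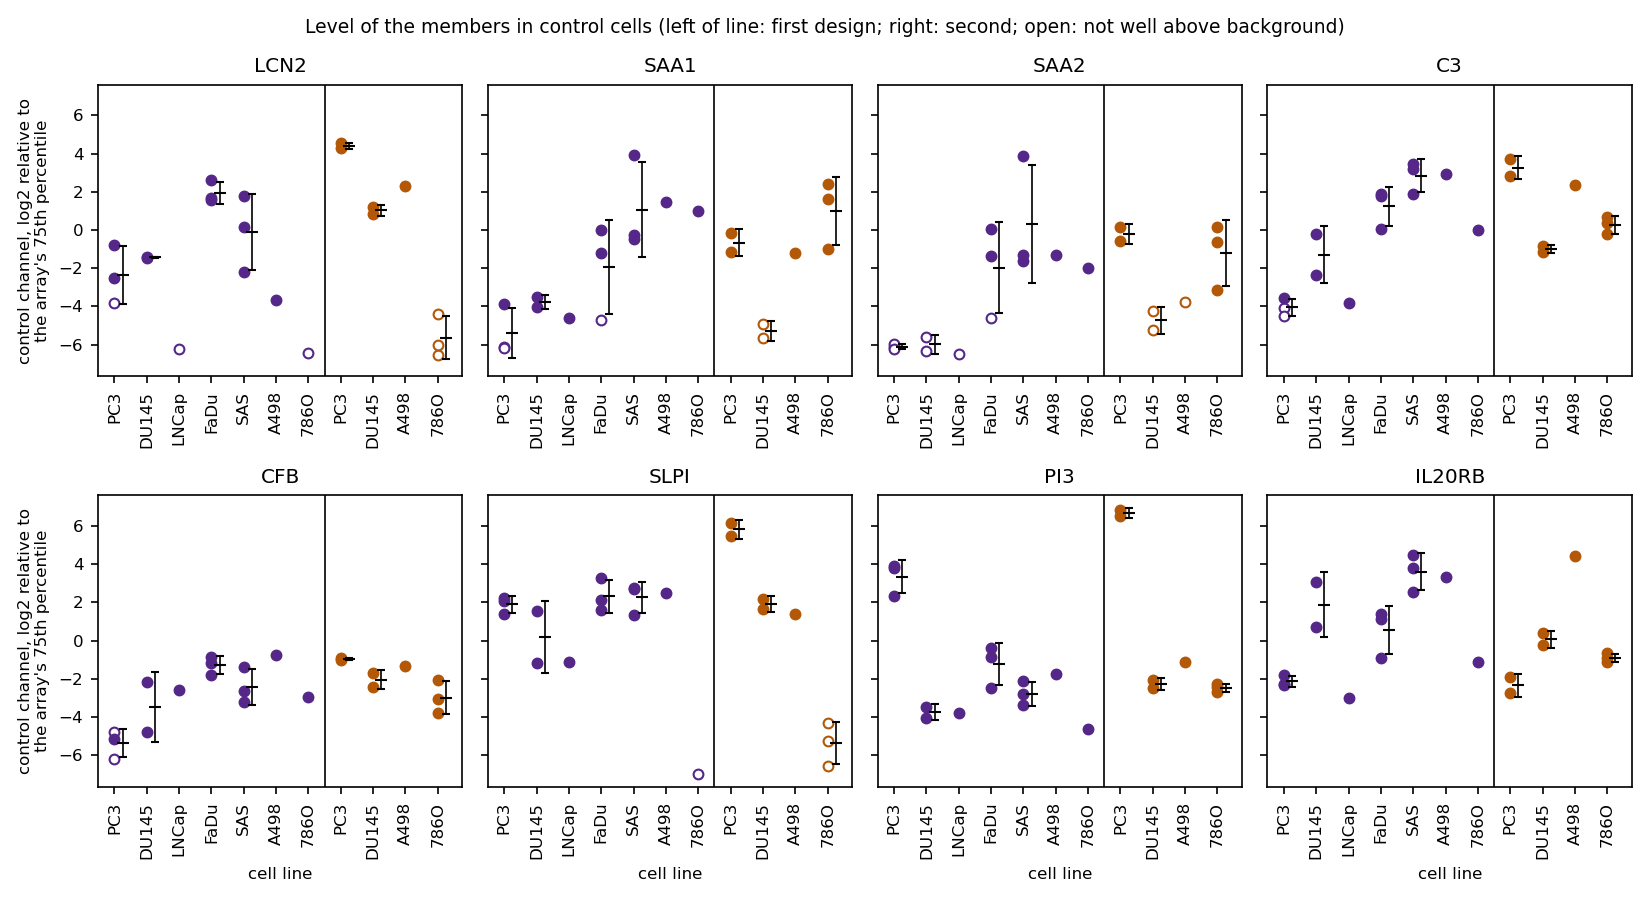
Control level (log2 Cy3 signal less the channel's 75th percentile) of each of the 8 members by cell line and array design, 1 panel a member. Points are control samples, bars are the mean and SD where a line has over 1 sample, and open points were not well above background. LCN2 is highest in FaDu on the first design (1.96) and in PC3 on the second (4.42), and PI3 is high only in PC3 (3.35 and 6.68).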

How the data were processed

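RNA of 24 cell-line treatments was hybridised by the authors against control RNA on Agilent two-colour arrays (Cy5 treated, Cy3 control). Per the file headers and the labels, Feature Extraction 10.7.3.1 had subtracted background and normalized the dyes before the files were deposited. The deposited values used here were processed signal intensity, the log10 ratio with its log10 error, and the well-above-background and outlier flags, used as a 0 or 1 score. The deposited series table held the same log10 ratios, with a largest difference of 0. Depth does not apply to arrays, and the number of arrays limits the precision.

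Control and outlier spots were left out and spots of a probe were averaged. The log10 ratio was turned to log2. The first design had 42405 probes, of which 65.8% were named through RefSeq, and the second had 50599, of which 60.9% were. A probe counted as above background when at least 0.5 of its spots were so flagged, and a call by size needed a log2 ratio past 1.0. Where a gene had 2 probes, the brighter one gave the gene's value. Replicated treatments and control levels were tested with limma 3.58.1 (lmFit and eBayes, Benjamini-Hochberg over all probes tested, adjusted p threshold 0.05), separately by design, on probes above background on at least 2 arrays. The 3 PC3 controls of miR-23b, miR-24 and miR-27b differed by less than other control pairs and were averaged to 1 sample, a choice made after seeing the data. In simulated data on 25000 genes the miR-145 layout recovered 194 of 200 genes changed by a log2 of 2 and 63 of 200 changed by 1. The 2-array layouts of wogonin and miR-143 recovered 185 and 180 changed by 2, but 2 and 0 changed by 1, and DU145 minus PC3 recovered 152 and 0. Each changed gene had the same change on all arrays of its group. The simulated noise was typically below that of the member probes with miR-145, whose SE in limma was 0.53 to 0.84. These counts therefore do not show how often changes of the members would be found.

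The genes named were the 8 members, the 5 genes most and the 3 least correlated with LCN2, and in each pathway list the genes with the largest rise and fall averaged over the genistein arrays. Members and lists were chosen with earlier results of these data known. Alternatives were another background correction, other centrings, no filter, other limits, slide as a block, each slide alone and leaving out each array. Groups came from the labels, and no sample was left out.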

Additional observations from a re-analysis of the deposited data

Results flagged for a closer look

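SLPI stood on opposite sides of 0 on the genistein arrays, at 2.17 in PC3 cells and at −1.24 in DU145 cells as log2 ratios. SAA2 did so on the miR-27b arrays, with −1.09 in 786O and 1.19 in A498, from signals close to background. These differences between lines were not tested, since each rests on 1 array a line.

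The control level of C3 by its brighter probe was higher in DU145 than in PC3 on the first array design and lower on the second, as a log2 difference of 2.77 and −4.27. Leaving out 1 sample in turn gave C3 differences of 1.71 to 3.84 on the first design and −4.71 to −3.83 on the second. CFB gave 1.90 and −1.08 in the same 2 comparisons, and neither passed in limma (adjusted p = 0.11 and 0.27). The difference between designs was not tested, and array design, slide and culture cannot be told apart in it.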

How the results depend on the processing

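Of the 32 member values past the limit upward over the 24 arrays, 21 were counted with normexp background correction and loess, 21 with both channels required above background, 50 with a limit of 0.5 and 21 with a limit of 2.0. The 18 downward became 30 and 33 with the mean of the other treatments on the design or the slide subtracted, and 6 with a limit of 2.0. The 6 members upward with genistein in PC3 became 3 with normexp, with no background subtraction, with either mean subtracted, with both channels required and with a limit of 2.0. In DU145 the 2 upward became 4 with a limit of 0.5 and 1 with 2.0, and the 1 downward became 4 with the slide mean subtracted and 0 with a limit of 2.0. LCN2 with genistein was at 3.319 in DU145 and 2.69 in PC3 with normexp, and at 2.85 in PC3 with no background subtraction. Of the 50 values past the limit 29 stayed past it under every background correction and centring, and 16 fell inside it with normexp. Of these 50, 3 changed sign, all with the slide mean subtracted, CFB and SAA2 with genistein in PC3 (−0.93 and −0.066) and SAA2 with miR-375 in FaDu (−0.42). Values of LCN2 inside the limit changed sign in 10 cases, each from at most 0.29 in size. The cause of these changes was not tested. Of 625 single ratios recomputed, 486 stayed within their error.

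The 2 member probes called with miR-145 became 1 with normexp and 1 with no filter, and 1 to 5 with a line left out (5 without DU145, 1 without PC3 or LNCap). The 25 calls between lines on the first design became 16 with slide as a block, and slide 1 alone gave 3 of the 13 calls of its pairs. Over the pairs of the line left out, leaving out 1 sample gave 5 to 16 calls on the first design and 4 to 14 on the second (9 without the PC3 si-GOLM1 array), where 19 were called in all. Counts with 1 sample left out cover fewer pairs than the 25 and 19 calls, so the gap between them is not a count of lost calls. Of 738 limma differences recomputed, none changed sign with a call, 9 without one did (from at most 0.19 in size), 118 lost their call and 12 gained one. Each array sets treated against control RNA of the same line, so its log2 ratio is already paired. Further pairing was not possible. Each treatment, line and time has a single array with the same replicate number, and the numbers link no samples. Arrays give relative signal, and differences of probes near background are bounds.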
